A study of Mus musculus with 18 samples.

Results

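A set of 9 genes that govern how mouse splenic B cells handle pyruvate, glucose and fatty acids at the mitochondrion were followed through LPS culture with and without *Zbtb24*. They were *Ucp2*, *Txnip*, *Arrdc4*, *Pdk1*, *Pdk2*, *Pdk3*, *Mpc1*, *Mpc2* and *Cpt1a*, all found by gene symbol among the 16545 genes of the expression table. *Ucp2* was chosen by its mean FPKM, which was slightly lower in the knockout at day 1, so its values in every comparison with day 1 are a description with no test. The other 8 genes were listed for their part in fuel choice, with earlier results of these data known.

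The table held RNA-seq values of 18 libraries, made from splenic B cells of C57BL/6 mice, 3 for each of 2 genotypes at day 0, day 1 and day 2 of culture with LPS (0, 24 and 48 h), the outer membrane lipid of Gram-negative bacteria, sensed by B cells through TLR4. B-CKO cells came from *Zbtb24* loxp/loxp mice with 1 Cre allele active in the B lineage, which removes exon 2 of *Zbtb24* there. Control cells are named only CON in the labels, and the methods of the study give littermate *Zbtb24* +/+ mice with the same Cre allele as the usual control, but whether these control mice carried it is not given in the labels, and the part of the Cre allele in the genotype results was not tested. Each replicate was 1 mouse, and expression was given in FPKM, a unit of fragments divided by transcript length and library size. The culture medium of the study contained sodium pyruvate, and day 0 cells were taken at 0 h of LPS. No library came from cells cultured without LPS. In every change from day 0, LPS, the culture medium and time in culture therefore cannot be told apart.

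*Zbtb24* itself was measured at 37.1 to 49.6 FPKM in control cells against 10.5 to 14.3 FPKM with the deletion at day 0, 15.7 to 18.8 against 10.4 to 11.7 FPKM at day 1, and 13.4 to 17.1 against 9.23 to 11.3 FPKM at day 2. The genotypes did not overlap on any day, although the adjusted p by limma was 0.12, 0.0586 and 0.267. *Cd79a*, *Cd79b*, *Ms4a1* and *Pax5*, markers of B cells, summed to 2973 to 4157 FPKM at day 0 and 1719 to 2258 FPKM later. By comparison, 6 T cell markers summed to 4.99 to 10.3 FPKM at day 0 and at most 1.95 FPKM later, 4 NK cell markers to 4.22 to 15.9 FPKM and at most 1.46 FPKM, 6 erythroid markers to 11.7 to 71.1 FPKM and 7.51 to 16.3 FPKM, and 7 myeloid markers to 3.17 to 9.94 FPKM over all days. Day 0 cells held the immediate early gene *Nr4a1* at 477 to 1251 FPKM, against at most 17.7 FPKM later. They held *Fos* at 344 to 444 FPKM (at most 1.81 FPKM later), *Cd69* at 174 to 324 FPKM (at most 29.5 FPKM) and *Irf4* at 118 to 266 FPKM (at most 67.3 FPKM). These genes were named after their values were seen. The part of these genes and markers in the changes from day 0 was not tested.

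Pyruvate from glycolysis enters mitochondria through a carrier formed by MPC1 and MPC2. There the pyruvate dehydrogenase complex turns it into acetyl-CoA, unless a pyruvate dehydrogenase kinase (PDK) phosphorylates the complex and shuts it down, which leaves more pyruvate for lactate. CPT1A loads long-chain fatty acids onto carnitine, the step that commits them to oxidation, and UCP2 is an inner membrane carrier linked to the export of C4 metabolites and to limits on reactive oxygen species. TXNIP and its relative ARRDC4 are alpha-arrestins that hold down glucose uptake, and both genes are textbook targets of the glucose-sensing MondoA-MLX factors.

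The promoter bases of these 2 glucose-responsive genes are shown because *Txnip* had the largest change of the 9 genes at day 1 of LPS in control cells while *Arrdc4* was almost absent. Each sequence is the 250 bases before the annotated start in RefSeq on GRCm38.p6, read 5′ to 3′ on the gene's strand, chr3:96557707-96557956 on the plus strand for *Txnip* and chr7:68749239-68749488 on the minus strand for *Arrdc4*. Capitals mark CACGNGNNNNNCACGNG, a form of the carbohydrate response element, in *Txnip* and the E-box CACGTG in *Arrdc4*, searched on both strands.
Txnip: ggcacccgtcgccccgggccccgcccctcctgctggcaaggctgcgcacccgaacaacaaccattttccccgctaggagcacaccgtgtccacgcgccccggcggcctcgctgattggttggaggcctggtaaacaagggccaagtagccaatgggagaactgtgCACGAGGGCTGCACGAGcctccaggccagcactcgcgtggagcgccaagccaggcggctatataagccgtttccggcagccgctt
Arrdc4: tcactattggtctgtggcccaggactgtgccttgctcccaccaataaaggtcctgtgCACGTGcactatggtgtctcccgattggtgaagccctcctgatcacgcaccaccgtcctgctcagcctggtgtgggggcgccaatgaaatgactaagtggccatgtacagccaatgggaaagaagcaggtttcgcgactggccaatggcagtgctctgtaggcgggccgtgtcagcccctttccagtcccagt

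All 9 genes had at least 1 such window. The *Txnip* match ran from 85 to 69 bases before the start, and the paired pattern was found in 15 of 32851 windows (0.0457%). It was in no window of the other 8 genes, but other forms of the carbohydrate response element were not searched. CACGTG stood 193 bases before the start of *Arrdc4* and 126 bases before a start of *Pdk2*, and in 6.02% of all windows. A match of letters is a description of the sequence, and binding was not measured.

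*Txnip* (chr3:96557957-96561857, GRCm38) fell about 9-fold within 1 day of LPS culture and regained part of its level by day 2 in both genotypes. Control cells held 338, 297 and 395 FPKM before LPS, 42.4, 38.1 and 38.1 FPKM at day 1, and 70.3, 72.2 and 83.6 FPKM at day 2. B-CKO cells held 301, 286 and 310.1 FPKM, then 34.4, 32.2 and 33.9 FPKM, then 77.1, 80.4 and 88.1 FPKM. No 2 days of a genotype overlapped. In RNA from whole cultures, fewer cells with a transcript and less of it per cell cannot be told apart, for *Txnip* and for every other gene here.

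In control cells the fall of *Txnip* to day 1 was 8.69-fold in mean FPKM, a difference of -3.08 ± 0.11 (SE) on the log2(FPKM + 1) scale used for all tests (adjusted p = 7.4e-06, limma). The rise from day 1 to day 2 was 1.91-fold (0.91 ± 0.075, adjusted p = 0.000156), and at day 2 the gene was still 4.56-fold under its level before LPS. In B-CKO cells the fall was 8.93-fold (-3.12 ± 0.053, adjusted p = 2.24e-06) and the rise 2.44-fold (1.26 ± 0.055, adjusted p = 1.31e-05). Within a library, *Txnip* went from rank 166 to 217 of all genes before LPS to rank 2090 to 2698 at day 1.

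*Arrdc4* was listed at 0.06 FPKM or less in every library and at 0 in all 6 libraries of day 1. The 2 glucose-responsive alpha-arrestin genes were thus at very different levels, both per length in FPKM. At values this close to 0 no fold is given for *Arrdc4*, and no comparison of it passed the test.

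**Figure D1:**
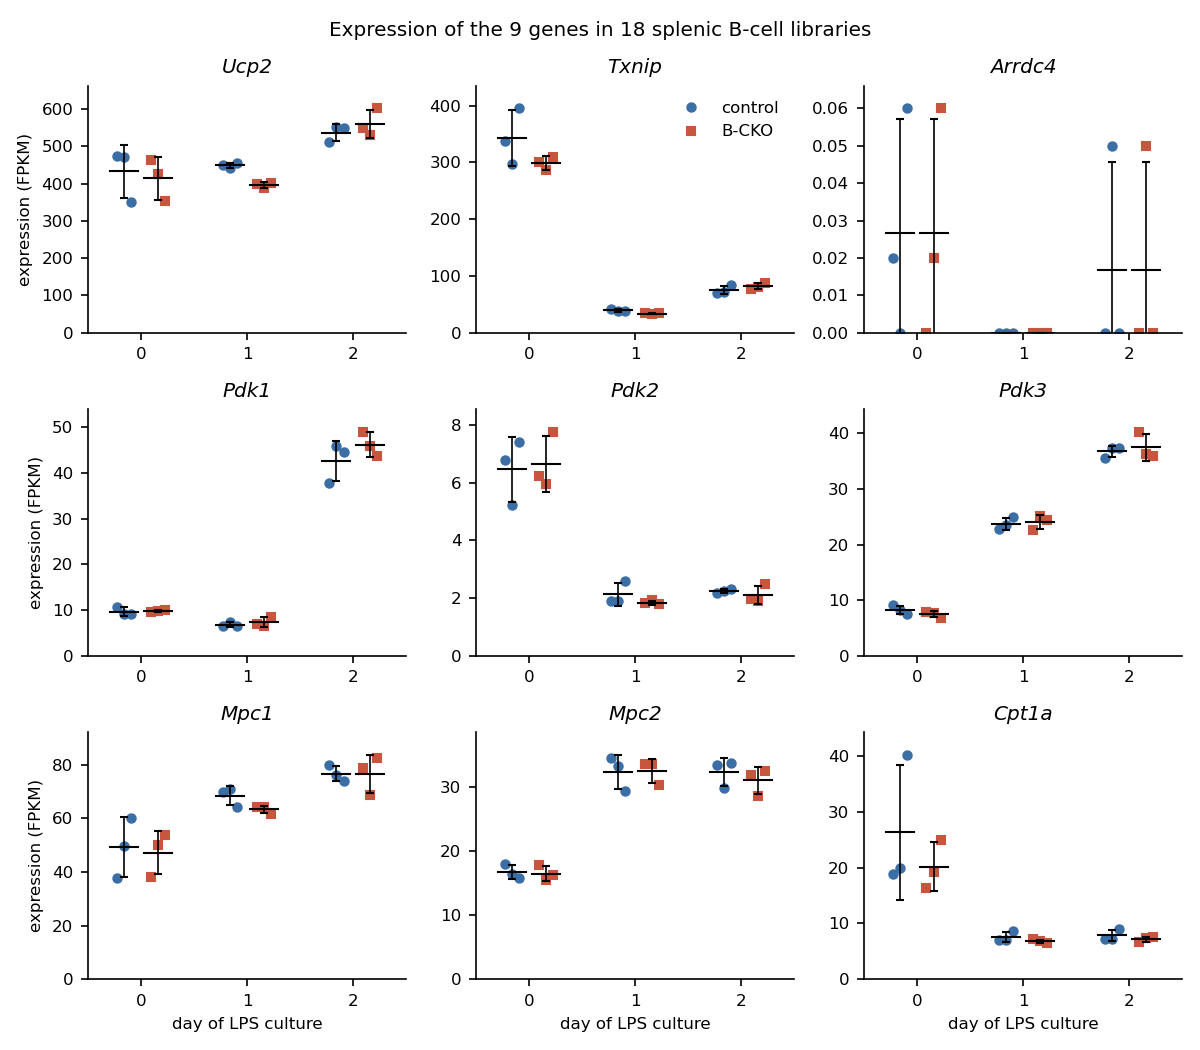
Expression of the 9 genes in FPKM (y axis, from 0, a scale for each gene) at day 0, 1 and 2 of LPS culture (x axis) in control (circles) and B-CKO (squares) libraries, with the mean and SD of 3 libraries as bars. *Txnip* drops from 286 to 395 FPKM to 32.2 to 42.4 FPKM at day 1, *Pdk1* rises to 37.7 to 49.0 FPKM at day 2 only, and *Ucp2* stays between 352 and 602 FPKM throughout.

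*Ucp2* (chr7:100493337-100499629, GRCm38) was the highest of the 9 genes in each group mean, and its FPKM moved little in LPS culture until day 2. Control cells held 475, 472 and 352 FPKM before LPS, 449, 443 and 455 FPKM at day 1, and 511, 551 and 549 FPKM at day 2. B-CKO cells held 465, 426 and 352 FPKM, then 399, 388 and 403 FPKM, then 551, 530.2 and 602 FPKM. The third replicate was the lowest in both genotypes before LPS, and every library of day 2 lay above every library of the earlier days.

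Ordered by mean, the levels of *Ucp2* ran from B-CKO at day 1 (397 ± 7.75 FPKM, SD, n = 3) over B-CKO before LPS (414 ± 57.2 FPKM), control before LPS (433 ± 70.3 FPKM) and control at day 1 (449 ± 6.07 FPKM) to control at day 2 (537 ± 22.3 FPKM) and B-CKO at day 2 (561 ± 37.0 FPKM). Neighbours in this order overlapped except control at day 1 and control at day 2. The day 2 mean was 1.20-fold the day 1 mean in control cells (0.26 ± 0.042, log2) and 1.41-fold in B-CKO cells (0.50 ± 0.056). Both ratios are given with no test, because the day 1 libraries entered the choice of the gene.

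From before LPS to day 1, likewise with no test, the difference of *Ucp2* was 0.07 ± 0.12 in control and -0.05 ± 0.11 in B-CKO cells (log2). Rescaled to TPM, the B-CKO value was -0.22, so its size depends on the scaling. From before LPS to day 2, without the day 1 libraries, the difference of *Ucp2* was 0.32 ± 0.13 in control cells (adjusted p = 0.0709, limma). In B-CKO cells that difference was 0.44 ± 0.12 (adjusted p = 0.0177). The B-CKO call did not hold after rescaling to TPM (0.22, adjusted p = 0.132) or without B-CKO replicate 2 (0.0853) or 3 (0.0614). Over the alternatives without day 1 libraries, the control value had an adjusted p of 0.0284 to 0.442. The single fit of 18 libraries is left out here for *Ucp2*, because it holds the day 1 libraries. *Ucp2* made up 99.9% to 100% of the summed FPKM of *Ucp1*, *Ucp2* and *Ucp3*, so nearly all RNA of these 3 genes was *Ucp2*. It ranked between 136 and 188 among all genes of a library.

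The genes whose level followed *Ucp2* most closely over the 18 libraries, among 7928 genes that averaged 5 FPKM or more, were *Ptms* (Pearson r = 0.956), *Cited2* (0.948) and *Rras* (0.934). *Ptms* held 37.2 FPKM in control cells and 31.5 FPKM in B-CKO at day 1 and 56.8 and 56.3 FPKM at day 2 (means). For *Txnip* they were *Jakmip1* (0.995), *Elf1* (0.994) and *Tpcn1* (0.994), and *Tpcn1* went from 11.9 FPKM before LPS to 2.28 FPKM at day 1 and 3.70 FPKM at day 2 in control cells. These values describe 6 groups that share their culture days, and carry no test.

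The 3 expressed PDK genes, which close pyruvate dehydrogenase, changed places during the culture. *Pdk2* fell and stayed low, *Pdk3* rose at both steps, and *Pdk1* fell slightly at day 1 and then rose more than 6-fold. *Pdk4*, the fasting-induced member, had means of 0.107 FPKM or less in all groups.

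*Pdk1* was measured at 10.7, 9.11 and 9.19 FPKM in control cells before LPS, 6.51, 7.46 and 6.48 FPKM at day 1, and 37.7, 45.9 and 44.5 FPKM at day 2. In B-CKO cells it was 9.61, 9.76 and 9.96 FPKM, then 6.86, 6.63 and 8.57 FPKM, then 49.0, 45.8 and 43.7 FPKM. Both genotypes were lowest at day 1 and highest at day 2, with no overlap between days. The rise from day 1 to day 2 was 6.26-fold in control cells (2.48 ± 0.086, adjusted p = 1.42e-05, limma) and 6.28-fold in B-CKO cells (2.504 ± 0.093, adjusted p = 8.46e-06). The earlier fall was 1.42-fold in control cells (-0.45 ± 0.10, adjusted p = 0.00979) and 1.33-fold in B-CKO cells (-0.37 ± 0.11, adjusted p = 0.0216). That fall was not called without control replicate 1 (adjusted p = 0.0578) or 3 (0.0544), nor without B-CKO replicate 1 (0.111) or 2 (0.145), nor in B-CKO cells with median-ratio scaling (0.0528).

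*Pdk2* was measured at 6.79, 5.22 and 7.40 FPKM in control cells before LPS, 1.89, 1.91 and 2.58 FPKM at day 1, and 2.19, 2.26 and 2.33 FPKM at day 2. It fell 3.04-fold to day 1 in control cells (-1.25 ± 0.16, adjusted p = 0.000688) and 3.603-fold in B-CKO cells (-1.42 ± 0.12, adjusted p = 8.33e-05), where the values were 6.25, 5.94 and 7.77 FPKM before LPS and 1.84, 1.92 and 1.78 FPKM at day 1. From day 1 to day 2 its groups overlapped in both genotypes.

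*Pdk3*, on the X chromosome, was measured at 9.07, 8.24 and 7.50 FPKM in control cells before LPS, 22.8, 23.5 and 24.97 FPKM at day 1, and 35.6, 37.4 and 37.4 FPKM at day 2. B-CKO cells held 7.92, 7.66 and 6.85 FPKM, then 22.6, 25.1 and 24.4 FPKM, then 40.3, 36.3 and 35.9 FPKM. The gene rose at each step in both genotypes without overlap. In control cells it rose 2.87-fold to day 1 (1.42 ± 0.087, adjusted p = 3.52e-05) and 1.55-fold more to day 2 (0.61 ± 0.043, adjusted p = 9.31e-05).

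As shares of the summed FPKM of *Pdk1* to *Pdk4*, control cells went from 39.5% *Pdk1*, 26.3% *Pdk2* and 33.8% *Pdk3* before LPS to 20.9%, 6.48% and 72.7% at day 1, and to 52.1%, 2.77% and 45.1% at day 2. B-CKO cells went from 40.8%, 27.7% and 31.2% to 22.1%, 5.57% and 72.3%, and to 53.8%, 2.48% and 43.7%. Thus *Pdk3* made up most kinase RNA at day 1 and *Pdk1* the largest share at day 2. The sum was 24.5 ± 2.05 FPKM before LPS, 32.7 ± 1.41 FPKM at day 1 and 81.7 ± 5.44 FPKM at day 2 in control cells (SD, n = 3). *Pdha1*, which encodes the subunit the kinases phosphorylate, stood at 1.27, 1.62 and 0.723 times that sum on the 3 days.

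**Figure D2:**
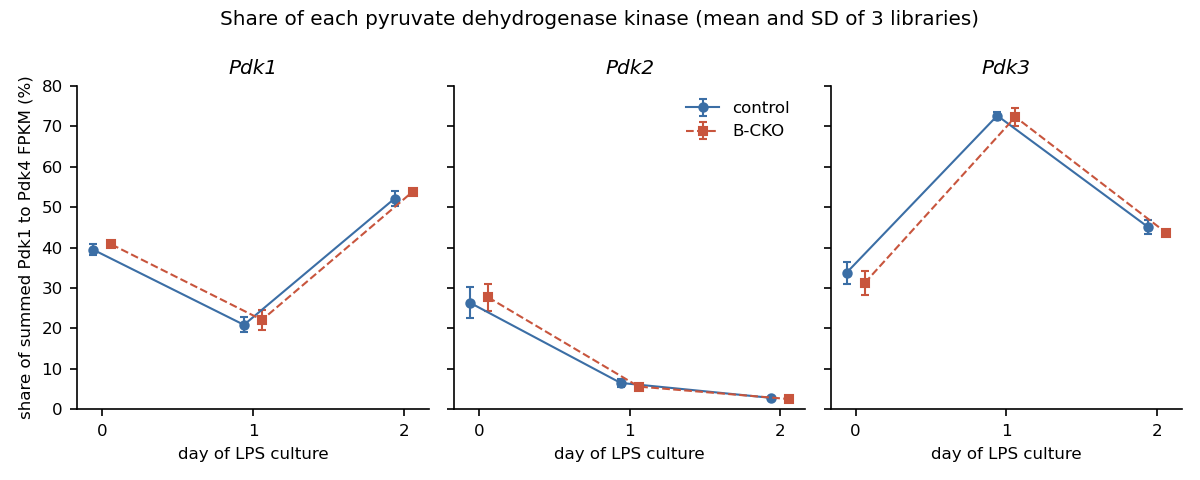
Share of *Pdk1*, *Pdk2* and *Pdk3* in the summed FPKM of *Pdk1* to *Pdk4* (y axis, %) by day of LPS culture (x axis) in control (circles) and B-CKO (squares) cells, as mean and SD of 3 libraries. *Pdk3* peaks at day 1 (72.7% in control cells), where *Pdk1* is lowest (20.9%), and *Pdk2* falls from 26.3% to 2.77%.

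Both subunits of the mitochondrial pyruvate carrier rose after LPS. *Mpc1* was measured at 37.7, 49.8 and 60.2 FPKM in control cells before LPS, 70.0, 71.0 and 64.4 FPKM at day 1 and 79.8, 76.2 and 74.0 FPKM at day 2. B-CKO cells held 38.1, 49.9 and 53.7 FPKM, then 64.3, 64.1 and 61.7 FPKM, then 78.6, 68.6 and 82.4 FPKM. Before LPS the first replicate was the lowest in both genotypes, and the days did not overlap.

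*Mpc1* rose 1.39-fold to day 1 in control cells (0.49 ± 0.16, adjusted p = 0.0413, limma) and 1.34-fold in B-CKO cells (0.43 ± 0.13, adjusted p = 0.0242). Neither call held after rescaling to TPM (adjusted p = 0.145 and 0.117). The control call was also lost with a replicate block (0.0587) and without replicate 1 (0.116) or 2 (0.219), and the B-CKO call without replicate 2 (0.127). From day 1 to day 2 it rose 1.12-fold in control (adjusted p = 0.0305) and 1.21-fold in B-CKO cells (adjusted p = 0.0161), and from before LPS to day 2 1.56-fold and 1.62-fold (adjusted p = 0.0128 and 0.00508). The day 1 to day 2 calls were lost in a single fit of all libraries (adjusted p = 0.48 and 0.187), in control cells also without any 1 replicate on both days (0.0609 to 0.14) or in TPM (0.0654), and in B-CKO cells without replicate 1 (0.146) or 3 (0.125). The control call to day 2 from before LPS was lost in TPM (0.0571) or without replicate 2 (0.109).

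*Mpc2* was measured at 17.9, 16.4 and 15.7 FPKM in control cells before LPS, 34.4, 33.2 and 29.4 FPKM at day 1 and 33.5, 29.8 and 33.7 FPKM at day 2. It rose 1.94-fold to day 1 in control cells (0.91 ± 0.085, adjusted p = 0.000196) and 1.97-fold in B-CKO cells (0.94 ± 0.075, adjusted p = 7.75e-05), from 15.4 to 17.7 FPKM to 30.3 to 33.6 FPKM. Its day 1 and day 2 groups overlapped in both genotypes, and no further change was called after day 1. The ratio of *Mpc1* to *Mpc2* FPKM was 2.99 ± 0.86 before LPS, 2.12 ± 0.081 at day 1 and 2.38 ± 0.18 at day 2 in control cells (SD, n = 3).

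*Cpt1a* fell about 3-fold and stayed down. Control cells held 18.9, 19.8 and 40.2 FPKM before LPS, 7.02, 7.02 and 8.67 FPKM at day 1 and 7.21, 7.25 and 8.98 FPKM at day 2. B-CKO cells held 16.3, 19.3 and 24.9 FPKM, then 7.10, 6.77 and 6.52 FPKM, then 6.66, 7.31 and 7.46 FPKM. The third replicate was the highest in both genotypes before LPS, and no library of day 1 or 2 reached the lowest of day 0. The fall to day 1 was 3.47-fold in control cells (-1.59 ± 0.29, adjusted p = 0.00365, limma) and 2.97-fold in B-CKO cells (-1.42 ± 0.15, adjusted p = 0.000254). *Cpt1a* made up 81.7% to 86.9% of the summed *Cpt1a*, *Cpt1b* and *Cpt1c* FPKM in control cells (means of the 3 days).

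Counted together without *Ucp2*, whose choice used day 1, 7 of the other 8 genes changed from before LPS to day 1 in control cells, 3 up (*Pdk3*, *Mpc1* and *Mpc2*) and 4 down (*Txnip*, *Pdk1*, *Pdk2* and *Cpt1a*), where 57.4% of all 15531 genes tested were called (26.7% up and 30.7% down). In B-CKO cells 7 of 8 changed in these same directions, where 59.8% of all genes were called (27.5% up and 32.3% down). From day 1 to day 2, 4 of these 8 rose and none fell in each genotype (*Txnip*, *Pdk1*, *Pdk3* and *Mpc1*), against 44.9% of all genes called in control cells (20.1% up) and 45.7% in B-CKO cells (21.7% up). From before LPS to day 2, 7 of 9 were called in control cells (background 56.8%) and 8 of 9 in B-CKO cells (57.6%), the added one being *Ucp2*. With backgrounds this high, the counts do not set the 9 genes apart. The median of the 8 differences was -0.24 from before LPS to day 1 in control cells (log2), beside -0.022 over all genes.

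The rest of the pathway was followed in 7 lists of 81 genes in all, of which 53 rose and 15 fell from before LPS to day 1 in control cells, a step at which 26.7% of all genes rose and 30.7% fell, the background for each list. Some of the falls were of genes near 0 FPKM. With only genes of at least 1 FPKM tested, 54 of 70 rose and 10 fell. That filter left 7530 genes called in all, so the unfiltered shares above are not the background of this count. Of the 17 genes of the tricarboxylic acid (TCA) cycle, which burns the acetyl-CoA made by pyruvate dehydrogenase, 16 rose and none fell, with a median of 0.94 (log2). *Idh3a*, a subunit of the NAD-dependent isocitrate dehydrogenase, rose 3.49-fold, *Sdhd*, a membrane anchor of succinate dehydrogenase, 2.98-fold and *Mdh2*, the mitochondrial malate dehydrogenase, 2.57-fold (adjusted p = 9.54e-06, 5.88e-06 and 3.89e-05, limma).

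Of the 9 genes of the pyruvate dehydrogenase complex and its regulators, 6 rose and 2 fell, 1 of them *Pdk4* from a mean of 0.107 to 0 FPKM. *Dlat*, its acetyltransferase, rose 2.52-fold from 9.80 to 24.7 FPKM, and *Pdhx*, its binding protein, rose 2.01-fold. *Pdp1*, a phosphatase that reopens the complex, fell 2.56-fold from 4.34 to 1.70 FPKM (adjusted p = 0.000231). *Pdp2*, the other such phosphatase, rose 1.93-fold from 2.79 to 5.39 FPKM (adjusted p = 0.0154), a call lost without control replicate 2 (0.145) or 3 (0.0581).

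Fatty acid genes were split. Of 18, 12 rose and 2 fell, while *Cpt1a*, the entry step, was among the 9 genes and fell. *Etfa* and *Etfb*, which take electrons from the acyl-CoA dehydrogenases, rose 2.86-fold and 2.77-fold, and *Cpt2*, the partner of *Cpt1a* on the inner membrane, rose 2.41-fold from 2.82 to 6.80 FPKM (adjusted p = 0.0145). The *Cpt2* call was lost without control replicate 2 or 3 (adjusted p = 0.142 and 0.0945).

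Of the 7 other alpha-arrestins and Mondo factors, 4 fell with *Txnip* and none rose. *Mlxip*, which encodes MondoA, fell 2.63-fold from 44.7 to 17.03 FPKM (adjusted p = 5.26e-05), *Arrdc1* 1.84-fold and *Arrdc3* 1.93-fold. *Mlx*, the partner of MondoA, had 17.5 FPKM before LPS and 19.5 FPKM at day 1 (adjusted p = 0.48), and *Mlxipl*, which encodes ChREBP, 0.12 FPKM or less in control cells before LPS. The call of *Arrdc3* was lost without control replicate 1 or 2 (adjusted p = 0.0582 and 0.0797).

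Of 13 mitochondrial carriers, 9 rose and 3 fell. *Slc25a13*, an aspartate-glutamate carrier, rose from 0.45 to 4.81 FPKM, and the ADP/ATP carriers *Slc25a4* and *Slc25a5* rose 2.89-fold and 2.77-fold. Of 11 genes for lactate, pyruvate carboxylation and glutamine entry, 7 rose and 1 fell, which was *Ldhb* with means of 0.343 and 0.06 FPKM. *Ldha*, lactate dehydrogenase A, rose 5.56-fold to 635 FPKM, *Slc16a1*, which encodes the lactate and pyruvate transporter MCT1, 5.72-fold to 33.6 FPKM and *Got2*, the mitochondrial aspartate aminotransferase, 3.33-fold to 162 FPKM.

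Between day 1 and day 2, the step at which *Pdk1* rose, 20 of the 79 genes tested rose and 19 fell in control cells, where 20.1% of all genes rose and 24.8% fell. *Slc16a3*, which encodes the lactate exporter MCT4 and was picked here after its values were seen, went from 0.773 to 121 FPKM (adjusted p = 3.21e-05), and *Ldha* rose 3.03-fold to 1921 FPKM. In the TCA cycle list 8 genes fell and 2 rose at this step. Of 6 glucose entry genes 5 rose, *Slc2a1*, the glucose transporter GLUT1, from 23.3 to 73.6 FPKM. In the first day *Slc2a1* had fallen 2.20-fold from 51.2 FPKM (adjusted p = 0.017), a call lost without control replicate 2 (adjusted p = 0.131) or 3 (0.0512). *Slc2a3* had fallen 2.82-fold, and *Hk2*, hexokinase 2, had risen 6.91-fold from 2.78 to 19.2 FPKM.

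**Figure D3:**
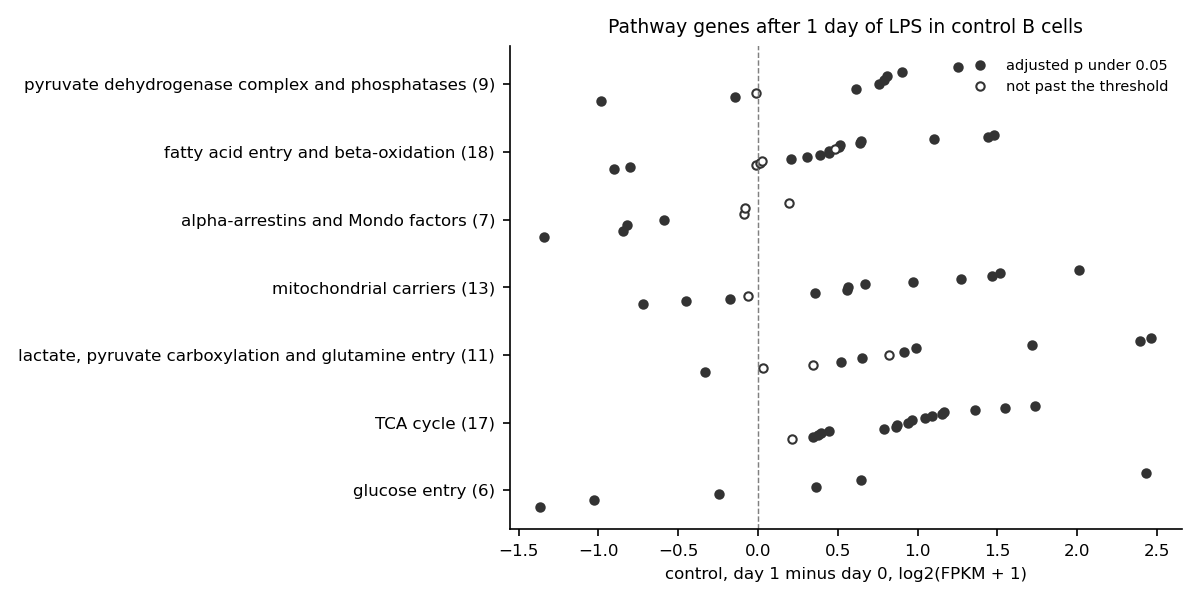
Difference between day 1 and day 0 in control cells (x axis, log2(FPKM + 1)) for each gene of the 7 pathway lists (rows, number of genes in brackets), filled where the adjusted p by limma was under 0.05. The 17 TCA cycle genes all lie above 0 (16 filled), while no filled gene of the alpha-arrestin and Mondo list does.

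None of these genes passed the threshold between genotypes at any day at which it was tested. Before LPS 0 of the 9 genes were called, as were 0 of all 15641 genes (0%, with 313 or 2.00% at an unadjusted p under 0.05). At day 1, 0 of the 7 genes that could be tested were called, against 15 of 15104 genes (0.0993%), with *Ucp2* given as a description and *Arrdc4* at 0 in all libraries. At day 2, 0 of 9 were called, against 7 of 15210 genes (0.0460%). At an unadjusted p under 0.05 there were 2 of these 7 genes at day 1, against 16.3% of all genes, 0 of 9 at day 2, against 7.71%, and 0 of 9 before LPS.

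*Txnip* was lower in B-CKO cells at day 1, at 32.2 to 34.4 FPKM against 38.1 to 42.4 FPKM, with no overlap and a mean 15.2% under control. The difference was -0.23 ± 0.049 (log2, 95% confidence interval -0.35 to -0.11, adjusted p = 0.11, limma). When only the 9711 genes that averaged 1 FPKM or more were tested, the same difference had an adjusted p of 0.0336, with 3.05% of genes called lower, so its call depends on which genes are tested with it. Over the alternatives the adjusted p ran from 0.0174 to 0.971. Groups without overlap were common at that day, in 20.1% of genes.

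*Mpc1* was the other gene of the 7 whose groups did not overlap at day 1, at 61.7 to 64.3 FPKM in B-CKO against 64.4 to 71.0 FPKM in control cells (-0.11 ± 0.041, adjusted p = 0.263). The gap was small, with the highest B-CKO library just under the lowest control library. *Ucp2* was at 388 to 403 FPKM in B-CKO and 443 to 455 FPKM in control cells, a mean 11.7% lower (-0.18 ± 0.028), which is the value that led to its choice. At day 2 its order was turned, with means of 561 and 537 FPKM, overlapping groups and a difference of 0.06 ± 0.065 (adjusted p = 0.863).

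The intervals show how large a genotype difference these libraries leave room for on the log2(FPKM + 1) scale. That scale shrinks the folds of genes at few FPKM. At day 1 the 95% confidence intervals of *Pdk1*, *Pdk2*, *Pdk3*, *Mpc2* and *Cpt1a* all included 0 and reached no further than -0.35 (*Pdk2*, with means of 2.13 and 1.85 FPKM) and 0.33. Before LPS they were wider, from -1.05 to 0.45 for *Cpt1a* and from -0.54 to 0.44 for *Mpc1*. At that day same-numbered libraries deviated together, and with the replicate number as a block the intervals were -0.66 to 0.061 for *Cpt1a* and -0.19 to 0.096 for *Mpc1*. Within all 3 pairs *Cpt1a*, *Pdk3* and *Txnip* were lower in B-CKO cells, with blocked differences of -0.30 ± 0.14, -0.13 ± 0.066 and -0.19 ± 0.073 (adjusted p = 0.867, 0.884 and 0.867). *Ucp2* and *Mpc2* were lower in 2 of 3 pairs, and *Mpc1*, *Pdk1* and *Pdk2* in 1. The share of all genes lower in all 3 pairs was not counted. At day 2 the widest on the lower side was that of *Cpt1a* (-0.34 to 0.12).

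**Figure D4:**
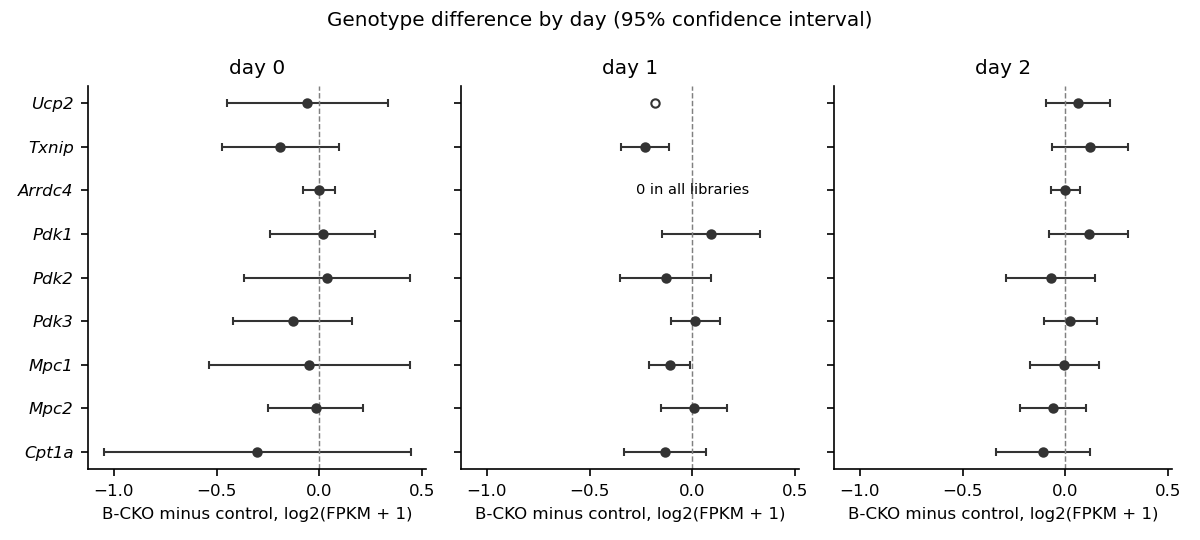
Difference between B-CKO and control cells (x axis, log2(FPKM + 1)) for each gene at day 0, 1 and 2, with the 95% confidence interval by limma over 3 against 3 libraries without a block. The open circle is *Ucp2* at day 1 (-0.18), the value that chose the gene, with no interval. Of those drawn, the intervals exclude 0 for *Txnip* (-0.23) and *Mpc1* (-0.11) at day 1, and no adjusted p was under 0.05.

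Whether the change between days differed between genotypes was tested over the 12 libraries of each pair of days. From day 0 to day 1, 0 of 8 genes were called and 0 of 16182 in all (0%, 467 at an unadjusted p under 0.05). From day 1 to day 2, 0 of 8 were called and 0 of 15844 in all (0%, 1158 at an unadjusted p under 0.05). The rise of *Txnip* from day 1 to day 2 was larger in B-CKO cells by 0.35 ± 0.10 (log2, adjusted p = 0.549). The same contrast was 0.24 ± 0.069 for *Ucp2*, given with no test because it contains the day 1 difference.

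The pathway lists gave no genotype call either, with 0 of 81 genes before LPS, 0 of 80 at day 1 and 0 of 78 at day 2. At an unadjusted p under 0.05 there were 1, 14 and 5 genes, against 2.00%, 16.3% and 7.71% of all genes. With only genes of at least 1 FPKM, 1 of 70 was called at day 1, higher, and none lower, against 0.947% of 9711 genes called higher and 3.05% called lower. It was *Got1*, the cytosolic aspartate aminotransferase, which was higher in B-CKO cells at 63.7 against 55.3 FPKM.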

How the data were processed

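Splenic B-cell RNA was sequenced in 18 libraries (3 control and 3 B-CKO on each of 3 days). The authors mapped reads to mm10 with Bowtie2 and estimated abundance with Cufflinks and RSEM, and the deposited FPKM values have 2 decimals for 16545 genes. BWA and DESeq2 also stand in the submitters' processing notes, and versions are not given in the sources used here. FPKM are already divided by transcript length and library size, so no counts and no absolute depth are known. Relative depth from the steps of low values was 0.897 to 0.929 at day 0 and 0.985 to 1.07 later.

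Values were tested as log2(FPKM + 1) with limma 3.58.1 (R 4.3.3; lmFit, eBayes with trend, two-sided), leaving out genes at 0 in all compared libraries, with Benjamini-Hochberg adjustment over all genes and a threshold of 0.05. The DESeq2 test of the study needs counts and was not run. Fits were tested on simulated data. Tables and figures were made with Python 3.11.15, numpy 2.4.6, pandas 2.3.3 and matplotlib 3.10.9.

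The 9 genes, the 7 pathway lists and the marker lists were chosen with earlier results of these data known. *Ucp2* has no test in any comparison with day 1 libraries, whose values chose it. Named beside them were *Zbtb24*, up to 3 genes of each pathway list with the largest change past the threshold and without overlap from day 0 to day 1 in control cells, any list gene called between genotypes, and the 3 genes most correlated with *Ucp2* and with *Txnip*. *Nr4a1*, *Fos*, *Cd69*, *Irf4*, *Pdk4*, *Pdp2*, *Pdha1*, *Cpt1b*, *Mlycd*, *Mlx*, *Mlxipl*, *Ldhb*, *Slc16a3* and *Got1* were named outside this rule. The fifth B cell marker is not reported here.

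Same-numbered control and B-CKO libraries deviated together at day 0 (r = 0.854, 0.468 and 0.789 across genes), where the numbers pair the samples, but not clearly at day 1 (0.103, 0.2 and 0.091) or day 2 (-0.0372, 0.216 and 0.23). The sources used here do not say whether a number is the same mouse on all days. Summed NK cell (0.44 to 15.9 FPKM), erythroid (7.51 to 71.1), platelet (0.11 to 0.8) and plasma cell markers were computed beside the T cell, myeloid and B cell ones. The plasma cell markers, *Irf4* among them, summed to 242 to 420.1 FPKM at day 0, 135 to 154 FPKM at day 1 and 194 to 316 FPKM at day 2. Each fit was repeated with 0.1 as pseudocount, with a filter at a mean of 1 FPKM, in TPM, with median-ratio scaling, with a replicate block, as a single fit of 18 libraries and without each replicate in turn. Leaving out a replicate took 1 library from a fit of 1 day, and its libraries of both days from a fit of 2 days. The block together with the 1 FPKM filter was chosen after seeing the data.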

Additional observations from a re-analysis of the deposited data

How the results depend on the processing

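Between genotypes at day 1, the count of all genes called was 15 and became 46 with a pseudocount of 0.1, 388 with only genes of at least 1 FPKM, 8 in a single fit of all libraries and 5 to 8 without 1 library, each of the 6 taking it to 8 or less. At day 0 it was 0 and became 2 with the 1 FPKM filter, 25 in the single fit and 0 to 1 without 1 library. At day 2 it was 7 and became 29 with the filter, 11 in the single fit and 0 to 6 without 1 library. *Ucp2* is left out here in any comparison with day 1 and in the single fit, which holds day 1 libraries. *Arrdc4* was at 0 in all libraries of day 1. Those of the 9 genes that were tested gave no genotype call in any of these except *Txnip* at day 1, 1 call with the filter and 1 with the filter and the block. The genotype-by-day counts of 0 became 2 in the single fit (day 0 to day 1), and 0 to 2 and 0 to 3 without 1 replicate on both days. Why the counts moved was not tested.

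A replicate block left the genotype count at 0 at day 0, and took it to 5 at day 1 and 3 at day 2. The block with the filter gave 22, 704 and 116 genes, and 2 genes in the genotype contrast from day 1 to day 2. With the block alone the rise of *Mpc1* from day 0 to day 1 in control cells was not called (0.49, adjusted p = 0.0587), and no other call among the 9 genes changed.

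From day 1 to day 2, 4496 genes were called in control cells without control replicate 3 (range 4496 to 5040, against 6820) and 4148 in B-CKO cells without replicate 1 (4148 to 5652, against 6964).

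Sign changes touched only differences that were not called. With TPM, *Mpc2* was -0.0046 between genotypes at day 1 and -0.041 from day 1 to day 2 in control cells, and *Pdk3* -0.0017 in the genotype contrast from day 1 to day 2. *Mpc1* between genotypes at day 2 was 0.0093 with median-ratio scaling. Without 1 library, genotype differences at day 0 ran from -0.20 to 0.054 for *Ucp2*, -0.022 to 0.086 for *Pdk1*, -0.088 to 0.13 for *Pdk2*, -0.22 to 0.11 for *Mpc1*, -0.069 to 0.034 for *Mpc2* and -0.49 to 0.037 for *Cpt1a*. At day 1 they ran from -0.011 to 0.15 for *Pdk1*, -0.016 to 0.056 for *Pdk3* and -0.058 to 0.055 for *Mpc2*, and at day 2 from -0.027 to 0.055 for *Pdk3* and -0.060 to 0.070 for *Mpc1*. Without 1 replicate on both days, genotype contrasts from day 0 to day 1 ran from -0.17 to 0.033 for *Txnip*, -0.023 to 0.17 for *Pdk1*, -0.26 to 0.13 for *Mpc1*, -0.042 to 0.063 for *Mpc2* and -0.079 to 0.35 for *Cpt1a*. Those from day 1 to day 2 ran from -0.059 to 0.16 for *Pdk1*, -0.042 to 0.12 for *Pdk2*, -0.084 to 0.063 for *Pdk3*, -0.15 to 0.028 for *Mpc2* and -0.032 to 0.093 for *Cpt1a*. Between days, again without 1 replicate on both days, *Mpc2* from day 1 to day 2 ran from -0.095 to 0.076 in control and -0.15 to 0.011 in B-CKO cells, and *Arrdc4* from day 0 to day 2 from -0.056 to 0.021 and -0.042 to 0.021.

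Depth in fragments is unknown, so no limit of detection can be given for *Arrdc4* and the other genes near 0 FPKM, and 3 libraries a group limit the precision, most at day 0, where replicate libraries correlated least.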
